A study of Saccharomyces cerevisiae with 25 samples.

Results

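The genes of the vacuolar proton pump and of protein sorting to the vacuole were followed in budding yeast after the removal of phosphate. Members were the genes named VPS, VMA, VAM or VPH followed by digits, plus STV1, that had a value in at least 20 of the 24 libraries without phosphate. Of 67 such names among 6650 named genes, 58 were kept: 17 genes of the proton pump (VMA genes, VPH1 and STV1), 40 sorting genes, and VPH2, a pump assembly factor that falls on neither side of that division.

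The series is 1 time course of Saccharomyces cerevisiae measured by RNA sequencing of total RNA, with 1 library per time point and 25 libraries in all. Every library came from the BY4741 background with the genotype pho84pr-YFP, pho90_OX, and the sources used here do not give how PHO90 was altered. The group labelled high Pi is the single library at 0 min, and the group labelled no Pi holds the 24 libraries taken every 15 min from 15 to 360 min after the cells had been washed and moved to medium that lacked phosphate. For comparison these were divided into an early (15 to 120 min), a middle (135 to 240 min) and a late window (255 to 360 min) of 8 libraries each. PHO90, which encodes a low-affinity phosphate transporter, stood at 1636 RPM (reads scaled to a sum of 1000000 per library) at 0 min and between 2153 and 5413 RPM afterwards. All libraries shared the genotype, so no result below separates phosphate removal from the altered PHO90.

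The vacuole of yeast is an acidic organelle that degrades proteins and stores phosphate as polyphosphate. The V-ATPase, which acidifies it, joins a cytosolic V1 sector that hydrolyses ATP to a membrane-embedded Vo sector that moves protons. Newly made vacuolar proteins reach the organelle by vesicles from the Golgi and by endosomes, and the VPS genes were named from mutants that mis-sort them.

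Levels are log2 RPM, that is, shares of a library. A higher share of 1 gene and a lower share of the others cannot be told apart in such values. The shallowest library (15 min) had 450744 reads in listed genes, the deepest (90 min) 2271193, and the median was 1005706. Depth fell with time, with window medians of 1382080, 1010602 and 612972 reads, and no gene was listed below 15 reads in any library. The share of reads from cytosolic ribosomal protein genes fell from 34.3% ± 1.98 in the early window to 9.45% ± 2.11 in the late window (SD, n = 8 each). Over the 4343 genes tested the median late minus early difference was 0.45 on the log2 scale. Centring every library on its median gene, or scaling to reads outside ribosomal protein genes, brought that median to -0.01, so each difference is also read against it. The 15, 345 and 360 min libraries were left out together as an alternative, given where that changed a call; the 315 and 330 min libraries, with 493480 and 516423 reads, were also shallow and were left out only 1 at a time.

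The upstream sequences of 6 members are shown because the differences over time of most V1 genes were larger than those of the Vo genes, and because AGGGG, the core site of the stress factors Msn2 and Msn4, matched in V1 windows and in no Vo window. Each line gives the 200 bases from 300 to 101 bases before the start codon, on the gene's own strand and from 5' to 3', read from the RefSeq genome of build R64. Capitals mark AGGGG or its complement CCCCT. The lines show the 4 V1 genes with a match, VMA10, the V1 gene with the smallest difference, and VPS62, a sorting gene with a match. Of the V1 genes, VMA13 (0.63), VMA1 (0.59), VMA4 (0.52) and VMA7 (0.30) had a match. VMA2 (0.49), VMA8 (0.37), VMA5 (0.24) and VMA10 (0.10) had none. A link between a match and the size of the difference was not tested.
VMA13: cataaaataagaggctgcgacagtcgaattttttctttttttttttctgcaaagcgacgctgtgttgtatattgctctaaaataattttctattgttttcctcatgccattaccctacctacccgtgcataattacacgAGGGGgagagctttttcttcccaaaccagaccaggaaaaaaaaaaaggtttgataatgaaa
VMA1: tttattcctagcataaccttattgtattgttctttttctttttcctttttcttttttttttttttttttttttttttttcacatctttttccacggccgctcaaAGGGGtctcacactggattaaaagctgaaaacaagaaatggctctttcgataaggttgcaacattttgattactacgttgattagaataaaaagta
VMA4: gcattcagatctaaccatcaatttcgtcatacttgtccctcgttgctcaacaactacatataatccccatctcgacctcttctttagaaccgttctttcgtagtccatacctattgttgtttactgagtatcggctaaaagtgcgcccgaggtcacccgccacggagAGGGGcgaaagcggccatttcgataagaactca
VMA7: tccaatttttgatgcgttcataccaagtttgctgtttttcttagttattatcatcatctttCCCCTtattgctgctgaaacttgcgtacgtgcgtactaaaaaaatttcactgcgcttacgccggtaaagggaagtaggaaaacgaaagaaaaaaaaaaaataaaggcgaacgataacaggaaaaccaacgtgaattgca
VMA10: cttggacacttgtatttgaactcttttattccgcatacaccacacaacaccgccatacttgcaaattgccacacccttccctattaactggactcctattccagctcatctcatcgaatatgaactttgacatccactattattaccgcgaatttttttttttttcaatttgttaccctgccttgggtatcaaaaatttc
VPS62: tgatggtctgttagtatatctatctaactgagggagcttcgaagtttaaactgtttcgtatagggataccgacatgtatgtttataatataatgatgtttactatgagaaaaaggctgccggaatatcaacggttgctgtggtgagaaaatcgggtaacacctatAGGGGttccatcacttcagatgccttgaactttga
The windows are chrXVI:643536-643735 for VMA13, chrIV:126487-126686 for VMA1 and chrXV:943356-943555 for VMA4, all on the plus strand. They are chrVII:527430-527629 for VMA7 and chrVIII:187780-187979 for VMA10, both on the minus strand, and chrVII:770269-770468 on the plus strand for VPS62. The window of VMA4 overlaps the gene MIP1, that of VMA10 overlaps BCD1 and that of VPS62 overlaps CBF2.

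AGGGG was searched on both strands. It lay in 982 of 6026 windows of all genes (16.3%), in 10 of 57 members with a window (17.5%), in 4 of 8 V1 genes and in 0 of 7 Vo genes. Among the sorting genes 5 of 39 held it, namely VPS17, VPS35, VPS53, VPS55 and VPS62. CACGTG, the core site of the phosphate factor Pho4, reads the same on both strands and lay in 181 of 6026 windows (3.0%) and in 0 of 57 members. The 4 called sorting genes described below held neither motif in this window. These are matches of letters and no sign of binding.

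The V1 sector stood higher late than early on the deposited scale, though not with libraries centred. Between the early and late windows 7 of its 8 genes rose at an adjusted p under 0.05 (limma, Benjamini-Hochberg over all 4343 genes), a share set against 63.8% of all genes tested. None reached the further size limit of a log2 difference of at least 1 that is used here for a call, which 13.8% of all genes passed upwards and 3.41% downwards. The median V1 difference was 0.43, close to the 0.45 of all genes, with 4 genes above that value and 4 below. With libraries centred, 0 V1 genes were higher and 2 lower, against 24.7% and 25.7% of all genes.

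VMA13, which encodes the H subunit that regulates the pump, had the largest difference of the sector. It stood at 279 RPM at 0 min, at 235, 274 and 315 RPM (lowest, median and highest) in the early window, at 334, 379 and 454 RPM in the middle one and at 355, 435 and 461 RPM late. Every late library lay above every early one. The difference was 0.63 ± 0.09 on the log2 scale (standard error, n = 8 against 8), 1.55-fold, with an adjusted p of 2.7e-07 in limma.

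VMA1 encodes the catalytic A subunit, whose precursor also carries a self-splicing intein. Its levels were 512 RPM at 0 min, 458 to 639 RPM with a median of 555 in the early window, and 726 to 906 RPM with a median of 814 in the late window. The windows did not overlap, and VMA1 rose 1.51-fold (log2 0.59 ± 0.10, adjusted p 3.7e-06 in limma). VMA4, the E subunit of the peripheral stalk, went from 595, 681 and 785 RPM early to 855, 999.8 and 1039 RPM late, again without overlap. VMA2, the B subunit, went from 423, 499.9 and 551 RPM to 640, 677 and 736 RPM. Their differences were 0.52 and 0.49.

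The V1 genes of the central stalk and the remaining peripheral parts moved less. The differences were 0.37 for VMA8 (D subunit), 0.30 for VMA7 (F subunit) and 0.24 for VMA5 (C subunit), and all 3 rose. VMA10, which encodes the G subunit of the same peripheral stalk as VMA4, stood at 777, 926 and 1047 RPM early and at 853, 971 and 1167 RPM late. Its windows overlapped widely, and the difference of 0.10 did not pass (adjusted p 0.35 in limma, 95% interval -0.09 to 0.29).

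**Figure D1:**
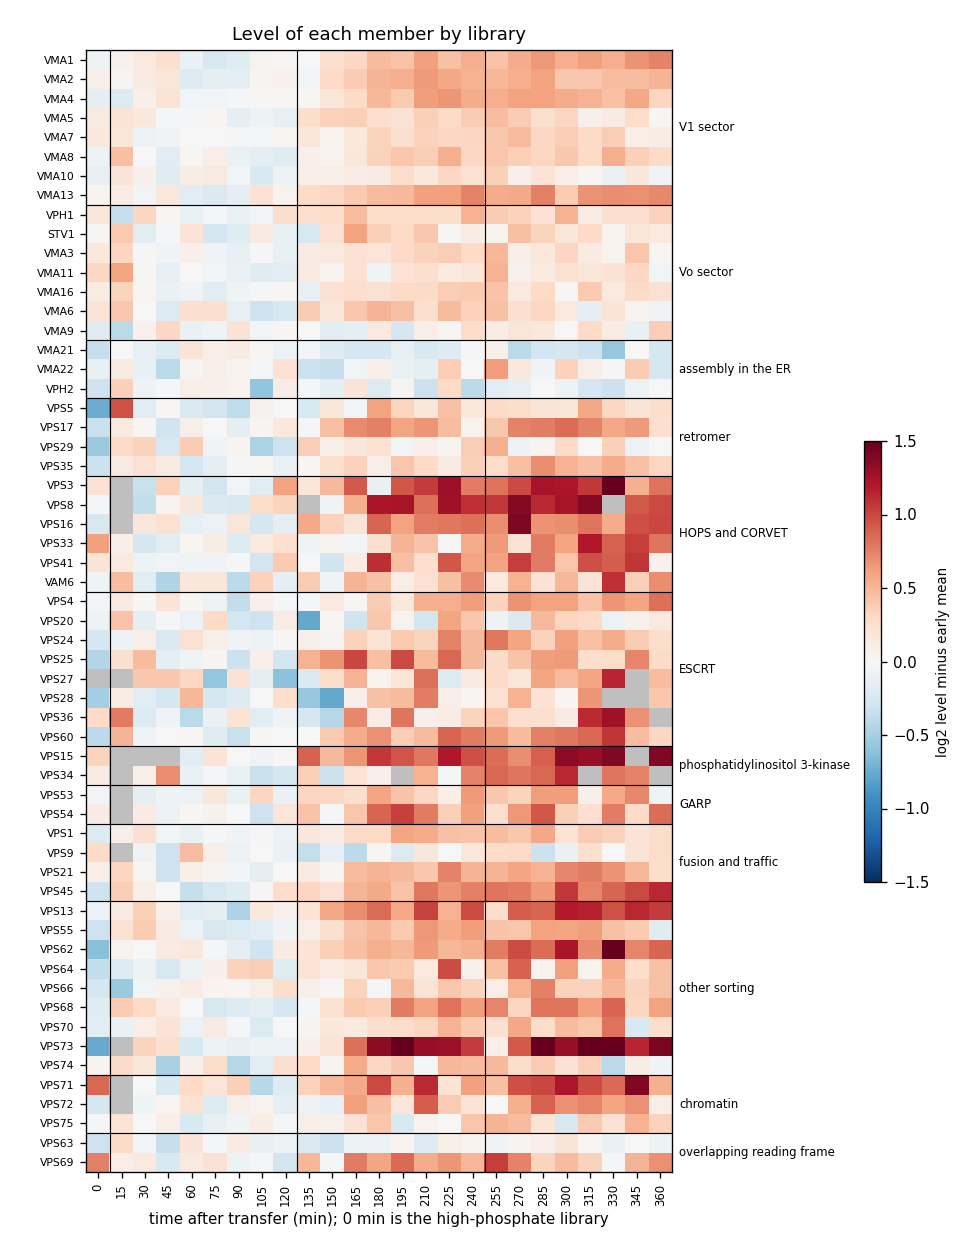
Level of each of the 58 members in each of the 25 libraries, as log2 level minus the mean of the gene's early libraries, with members grouped by role and grey where a gene was not listed. Most V1 rows turn darker after 120 min, the Vo rows stay paler, and VPS3, VPS8, VPS15 and VPS73 are among the darkest late rows; cells beyond 1.5 are drawn at the end of the scale.

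The Vo sector moved less than the genes as a whole. All 7 Vo genes had a positive difference, between 0.14 and 0.30, but all 7 lay below the all-gene median, and with libraries centred all 7 were negative and 5 fell at an adjusted p under 0.05 in limma, against 25.7% of all genes. On the deposited scale 3 of them rose, against 63.8% of all genes: VPH1, VMA16 and VMA3. VMA3 no longer passed when any 1 of 9 libraries was left out (30, 45, 75, 90, 105, 120, 255, 300 or 345 min), with differences of 0.17 to 0.21.

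The proteolipid ring of Vo is built from the c subunit of VMA3, the c' subunit of VMA11 and the c'' subunit of VMA16. VMA3 stood at 764 RPM at 0 min, 629, 669 and 859 RPM early and 699.96, 758 and 971 RPM late. The windows overlapped, and the difference was 0.21 ± 0.09 (adjusted p 0.043 in limma). VMA11 had 263, 283 and 448 RPM early and 289, 342 and 426 RPM late, with its highest level of all libraries at 15 min. Its difference of 0.20 did not pass (adjusted p 0.060 in limma), but it passed without the 15 min library (0.29, adjusted p 0.0020) or without the 360 min library (0.24, adjusted p 0.031). VMA16 rose by 0.24 (adjusted p 0.012 in limma), from 183, 199.6 and 257 RPM to 208, 245 and 276 RPM. The ratio of VMA3 to VMA11 stayed between 1.92 and 2.71 over all 25 libraries, and that of VMA3 to VMA16 between 2.77 and 4.13.

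VPH1 and STV1 encode alternative forms of the large a subunit, VPH1 for pumps of the vacuole and STV1 for those of the Golgi and endosomes. VPH1 stood at 203 RPM at 0 min, at 142, 176 and 225 RPM early and at 195, 222 and 259 RPM late, and rose by 0.30 ± 0.09 (adjusted p 0.0027 in limma). STV1 stood at 71.8 RPM at 0 min, at 59.7, 67.9 and 93.2 RPM early and at 73.4, 80.4 and 97.2 RPM late. Its difference of 0.21 ± 0.11 did not pass (adjusted p 0.093 in limma), although it passed without the 15 min library (0.27, adjusted p 0.032).

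The ratio of VPH1 to STV1 within a library does not depend on how libraries are scaled. It was 2.83 at 0 min, 2.54 in the early and 2.71 in the late window as geometric means, and ran from 1.52 at 15 min to 3.60 at its highest. The log2 ratio was 1.34 ± 0.40 early and 1.44 ± 0.21 late (SD, n = 8 each), a difference of 0.09 that was within the spread (exact two-sided permutation test, p 0.58). Without the 15, 345 and 360 min libraries the difference was -0.03 (p 0.86 in the exact permutation test, n = 7 against 6).

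The 2 remaining Vo genes were VMA6, the d subunit that joins the ring to the stalk, with a difference of 0.15, and VMA9, the small e subunit, with 0.14. Neither passed from early to late. VMA6 rose from early to middle (0.38, adjusted p 0.0029 in limma). Its late minus middle difference was -0.23 (adjusted p 0.098 in limma).

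**Figure D2:**
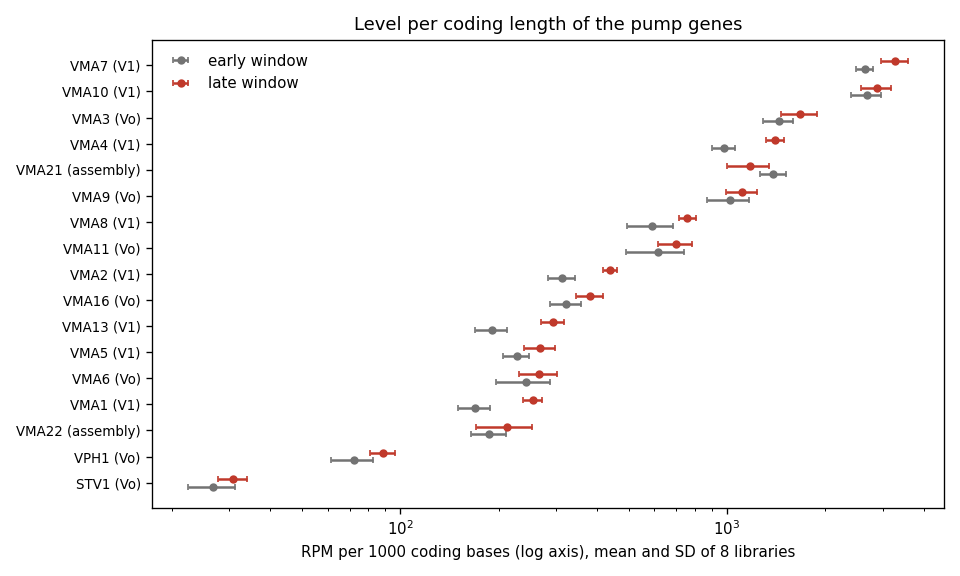
Level of the 17 pump genes per 1000 coding bases (log axis), as the mean and SD of 8 libraries in the early and late windows. VMA7 and VMA10 stand highest and STV1 lowest in both windows. The late bars of VMA1, VMA2, VMA4, VMA7, VMA8 and VMA13 lie clear of the early ones.

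Per 1000 coding bases, which allows genes to be compared, the late means ran from 3272 RPM for VMA7, 2870 RPM for VMA10 and 1670 RPM for VMA3 down to 88.5 ± 7.71 RPM for VPH1 and 30.9 ± 3.07 RPM for STV1 (SD, n = 8). In the early window VPH1 stood at 72.2 ± 10.6 RPM and STV1 at 26.9 ± 4.34 RPM on the same scale. The early means of VMA7 (2644 ± 158 RPM) and VMA10 (2682 ± 284 RPM) lay within 1 SD of each other. The sources used here do not say whether reads cover whole transcripts, so levels per length may be off for long genes. The 15 genes of V1 and Vo together took 0.664% of reads at 0 min, 0.649% ± 0.036 early, 0.793% ± 0.062 in the middle and 0.816% ± 0.032 late.

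Of the assembly factors 1 fell and none rose. VMA21, VMA22 and VPH2 work in the endoplasmic reticulum and build Vo without being part of the finished pump. VMA21 stood at 250.3 RPM at 0 min, at 276, 321 and 364 RPM early and at 215, 264 and 339 RPM late. Most late libraries were lower, with overlap at 255 and 345 min. The difference was -0.25 ± 0.09, 0.841-fold, with an adjusted p of 0.012 in limma; it was the only member to fall at an adjusted p under 0.05, against 7.32% of all genes tested.

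VPH2 had a difference of -0.13 and VMA22 one of 0.17, and neither passed. With libraries centred all 3 factors fell, at -0.71 for VMA21, -0.59 for VPH2 and -0.29 for VMA22, against 25.7% of all genes lower. They were also the only role group in which 0 of the members passed the spline test of change over time described below. Of all genes tested 78.7% passed it.

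The medians of the sectors by library drew apart on average over time, with overlap between the windows. Relative to the early mean of each gene, the V1 median was 0.36 ± 0.15 in the middle libraries and 0.42 ± 0.06 in the late ones, and the Vo median 0.24 ± 0.06 and 0.22 ± 0.09 (SD, n = 8 libraries). The gap between V1 and Vo was 0.02 ± 0.10 early, 0.12 ± 0.10 in the middle and 0.20 ± 0.10 late. The early mean of the gap lies near 0 by construction, since each gene is set against its own early mean. The gap ran from -0.18 (at 15 min) to 0.12 in the early libraries. It ran from -0.04 to 0.23 in the middle ones and from 0.02 to 0.33 late. These ranges overlapped, and the gap at 0 min was -0.17. Over the 3255 genes listed in every library the median was 0.26 ± 0.11 and 0.39 ± 0.02. The V1 and Vo gap is a description with no test, since the members share libraries.

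**Figure D3:**
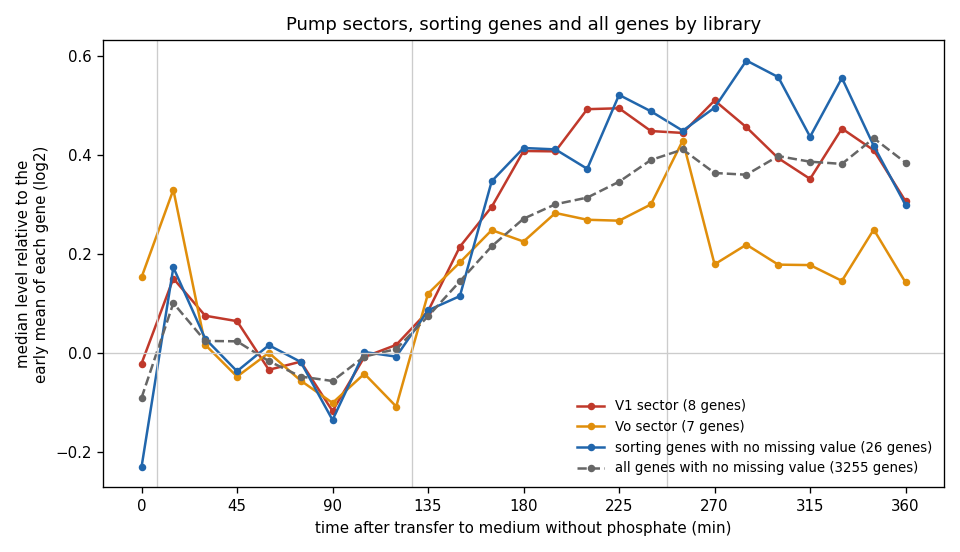
Median level of the V1 genes, the Vo genes, the 26 sorting genes listed in every library and all 3255 genes listed in every library, relative to the early mean of each gene (log2), against time; vertical lines part 0 min and the windows. The V1 and sorting lines cross several times from 30 to 270 min and stand apart at some times, as at 210 min (0.49 and 0.37). The Vo line stays near 0.2 from 270 min, and it peaks at 15 and 255 min.

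Set against the pump, the sorting genes moved more, but as a group they stayed close to the genes at large. Of all 4343 genes tested, 63.8% rose and 7.32% fell at an adjusted p under 0.05 (limma). Of 40 sorting genes, 33 rose and 0 fell, with a median difference of 0.53 and a range of 0.02 to 1.24. Of 17 pump genes, 10 rose and 1 fell, with a median of 0.24 and a range of -0.25 to 0.63. Thus 25 of 40 sorting genes and 4 of 17 pump genes lay above the all-gene median of 0.45. All 17 pump genes were listed in every library, and the 26 sorting genes without a missing value had a median of 0.46. The V1 and Vo medians were 0.43 and 0.21, and that of all genes without a missing value was 0.38. With libraries centred the pump median turned to -0.22, with 0 genes higher and 9 lower, and the sorting median shrank to 0.07, with 11 higher and 3 lower; centring put 24.7% of all genes higher and 25.7% lower.

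Over all 58 members 43 rose and 1 fell, against 63.8% and 7.32% of all genes, and the median of 0.45 equalled that of all genes. Of the members 4 were called higher and 0 lower, against 13.8% and 3.41% of all genes. Without the 15, 345 and 360 min libraries 13 pump genes and 34 sorting genes rose, 5 sorting genes were called, and the medians were 0.29 and 0.55. In the same setting 2753 of all 4343 genes rose, 660 were called higher, and their median was 0.47. In 16 of 58 members every late library that listed the gene lay above every early one that did, against 28.2% of all genes tested. The 16 were VMA1, VMA2, VMA4 and VMA13 of the V1 sector, and VPS4, VPS8, VPS15, VPS16, VPS17, VPS24, VPS34, VPS35, VPS45, VPS54, VPS62 and VPS71, of which VPS8, VPS15, VPS16, VPS34, VPS54 and VPS71 went unlisted in some libraries. In 0 members every late library lay below every early one, against 4.03% of all genes.

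The 4 called members were VPS3, VPS8, VPS15 and VPS73, all counted as sorting genes by their names, and 0 pump genes were called. All 4 were low in abundance and had at least 1 missing value, with 15 to 92 reads in the libraries that listed them. Among the 14 sorting genes with a missing value the median difference was 0.72, and among the 26 with none it was 0.46 with 0 calls. The same division held over all genes tested, with medians of 0.66 and 0.38, and with 19.8% and 11.8% called higher. The floor was 6.60 RPM at its lowest and 33.3 RPM at 15 min, and 13.1 to 30.4 RPM in the late libraries, so low late values could go unlisted where early ones did not. With libraries centred 0 of the 4 were called, and with missing values set to the floor 2 were. Over all genes tested the number called higher went from 599 to 200 with libraries centred and to 540 at the floor.

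**Figure D4:**
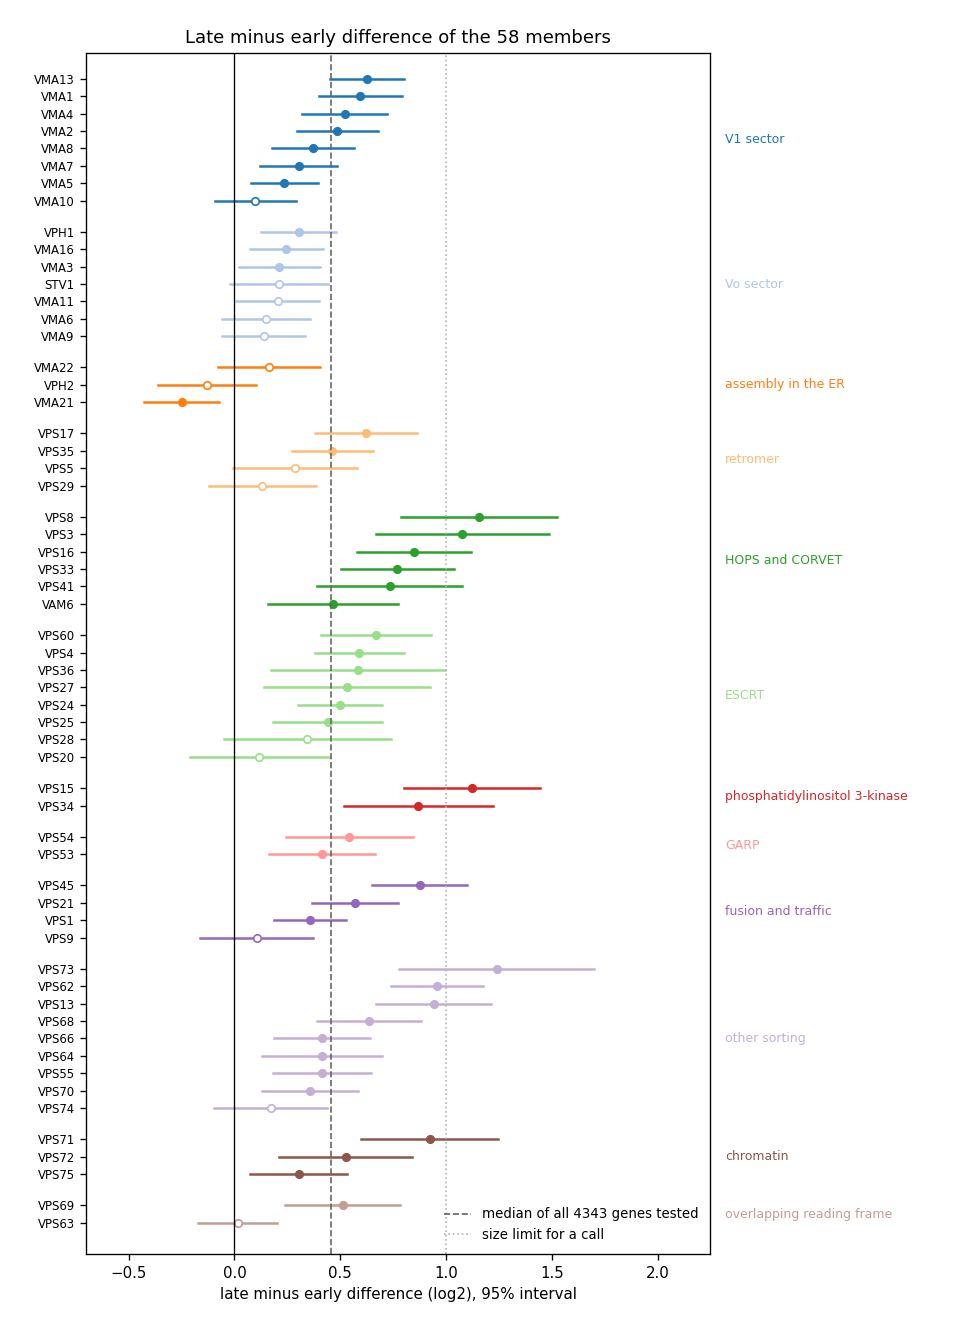
Late minus early difference of the 58 members (log2) with its 95% interval, grouped by role; filled points have an adjusted p under 0.05, the dashed line is the median of all 4343 genes tested and the dotted line the size limit for a call. Every Vo point and every assembly point lies left of the dashed line, and every HOPS and CORVET point right of it.

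The tethers of the endosome and vacuole stood furthest above the all-gene median among the role groups of over 4 genes. CORVET holds vesicles at the endosome and HOPS at the vacuole, and both are built on a shared core. All 6 tested members rose, against 63.8% of all genes, all 6 lay above the all-gene median, and their median difference was 0.81. The core also holds PEP5 and PEP3, which lack a VPS name in the table; they rose by 0.91 and 0.36, the latter below the all-gene median. With libraries centred 4 of the 6 members were higher and 0 lower, against 24.7% and 25.7% of all genes. Of these 4, VPS3, VPS8 and VPS16 went unlisted in some libraries and VPS33 in none. Over all genes tested, those with a missing value had a median difference of 0.66 and the others 0.38.

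VPS8 encodes a subunit that only CORVET has and lies at chrI:143707-147531 on the plus strand of R64. It stood at 15.4 RPM at 0 min, on 15 reads, for which counting error alone gives 8.61 to 25.4 RPM (95%, exact Poisson). It was at 12.1, 16.1 and 19.7 RPM in the 7 early libraries that listed it and at 29.5, 34.3 and 40.5 RPM in 7 late ones, and it went unlisted at 15, 135 and 330 min. The early and late values did not overlap, and the difference was 1.16 ± 0.18, 2.23-fold (adjusted p 3.1e-06 in limma).

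VPS3, the other CORVET-specific subunit, lies at chrIV:1438115-1441150 on the minus strand. Its levels were 23.6 RPM at 0 min, 16.1, 18.5 and 30.9 RPM early and 29.5, 41.5 and 77.5 RPM late, the last at 330 min. The windows overlapped only between the 120 min and 345 min libraries. The difference was 1.08 ± 0.20, 2.11-fold (adjusted p 3.0e-05 in limma), and it dropped under the size limit, to 0.96, without the 330 min library.

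In the shared core, VPS16 rose from 25.4, 28.5 and 35.4 RPM to 44.5, 50.8 and 79.5 RPM without overlap (0.85). VPS33, a Sec1/Munc18 protein that chaperones membrane fusion, rose by 0.77, and its level at 0 min, 51.3 RPM, lay above all early libraries, which held 28.2 to 40.1 RPM, although its counting interval of 38.1 to 67.6 RPM reached them. The HOPS-specific genes VPS41 and VAM6 rose by 0.73 and 0.47, the latter with the smallest difference of the group.

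The lipid kinase that marks endosomes had both of its tested genes above the all-gene median. VPS34 encodes the phosphatidylinositol 3-kinase and VPS15 the protein kinase bound to it. VPS15, at chrII:436951-441315 on the plus strand, stood at 19.5 RPM at 0 min, at 13.9, 15.4 and 17.9 RPM in the 5 early libraries that listed it, and at 25.3, 38.5 and 40.8 RPM in 7 late ones. The values did not overlap, and the difference was 1.12 ± 0.16, 2.18-fold (adjusted p 7.8e-07 in limma). It was not listed at 15, 30, 45 and 345 min. VPS34 rose by 0.87 ± 0.17 (adjusted p 8.2e-05), from 15.0, 17.6 and 30.6 RPM to 31.4, 33.6 and 41.02 RPM where it was listed.

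**Figure D5:**
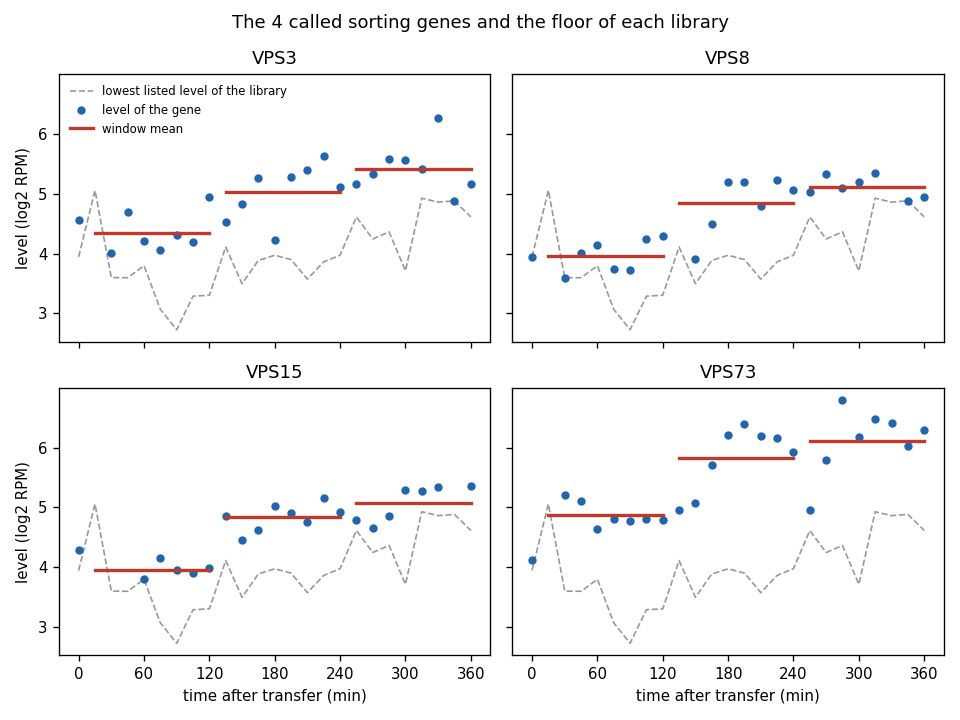
Level of the 4 called sorting genes in each library that listed them (points), their window means (bars) and the lowest listed level of the library (dashed line), all in log2 RPM against time. In all 4 genes the window means rise from early to middle to late. Single points vary, and VPS3 is lower at 180 min (18.8 RPM) than at 120 min (30.9 RPM). At several late times VPS3, VPS8 and VPS15 lie close to the dashed line.

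Of the ESCRT genes with a VPS name, which sort membrane proteins into vesicles inside endosomes, 6 of 8 rose and 0 were called, with a median of 0.52. Of all genes tested 63.8% rose and 13.8% were called higher. VPS60 had the largest difference of these 8, 0.67 ± 0.13 (adjusted p 3.4e-05 in limma), with 53.3, 67.7 and 95.4 RPM early and 83.2, 109 and 141 RPM late; the early maximum was the 15 min library. VPS4, the ATPase that takes ESCRT polymers apart, rose by 0.59, from 94.0, 123 and 140 RPM to 153, 185 and 215 RPM without overlap. SNF7, an ESCRT gene without a VPS name, rose by 0.68. VPS20 had the smallest difference of the 8, 0.12, and did not pass, and neither did VPS28.

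Retromer returns sorting receptors from endosomes to the Golgi. VPS17, a sorting nexin, rose by 0.62 ± 0.12 (adjusted p 3.8e-05 in limma), from 41.1, 51.8 and 56.5 RPM to 60.4, 81.6 and 90.8 RPM. VPS35, the cargo-binding scaffold, rose by 0.46, from 47.2, 56.7 and 66.2 RPM to 68.5, 77.0 and 91.9 RPM. In both genes the windows did not overlap. VPS5, the partner of VPS17, had a difference of 0.29 that did not pass (adjusted p 0.074), but it passed without the 15 min library, where it stood at 99.8 RPM (0.42, adjusted p 0.0017). VPS29 had the smallest difference, 0.13.

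GARP tethers vesicles from endosomes at the Golgi, and its tested genes VPS54 and VPS53 rose by 0.54 and 0.41. Among the fusion and traffic factors, VPS45, a Sec1/Munc18 protein of the endosome, rose by 0.88 ± 0.11 (adjusted p 7.4e-08 in limma), from 49.98, 63.98 and 82.1 RPM to 98.7, 114 and 139 RPM without overlap. VPS21, an endosomal Rab GTPase, rose by 0.57 and VPS1, a dynamin-like GTPase, by 0.36. VPS9, the exchange factor of VPS21, had a difference of 0.10 that did not pass.

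Of the 9 other sorting genes 8 rose and 1 was called higher, against 63.8% and 13.8% of all genes. VPS73, at chrVII:308713-310173 on the minus strand, encodes a mitochondrial protein of unclear role despite its name. It stood at 17.4 RPM at 0 min, at 25.0, 27.9 and 37.1 RPM early and at 31.0, 75.4 and 111 RPM late. The low late value was the 255 min library, and the other 7 lay above all early ones. The difference of 1.24 ± 0.23, 2.36-fold, was the largest of the members (adjusted p 2.7e-05 in limma). VPS62 and VPS13, the latter a lipid transfer protein of membrane contact sites, fell just short of the size limit at 0.96 and 0.94. VPS62 passed it without the 15, 345 and 360 min libraries (1.02) and VPS13 without the 255 min library (1.04). VPS74, a Golgi protein that retains glycosyltransferases, had the smallest difference of the group, 0.17, which did not pass.

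Some VPS names belong to proteins that do not sort. VPS71 and VPS72 encode subunits of the SWR1 chromatin remodeller and VPS75 a histone chaperone, and they rose by 0.92, 0.53 and 0.30. VPS71 stood at 41.03 RPM at 0 min, above its early range of 16.9 to 29.1 RPM, and at 31.0 to 59.0 RPM late. VPS63 is a reading frame of 327 bases, of which 320 overlap the gene YPT6 on the same strand. Its levels followed those of YPT6 to within 0.04 on the log2 scale in 25 libraries, so its value (0.02) and that of YPT6 (0.02) cannot be told apart. VPS69 rose by 0.51 and was not matched in the annotation used here. Without the chromatin genes and these reading frames the sorting genes numbered 35, with a median of 0.54. Of these, 29 rose and 4 were called higher, against 63.8% and 13.8% of all genes. The 4 still included VPS73, which was kept by its name.

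Most of the change fell between the early and middle windows. In that comparison 36 of 58 members rose and 0 fell (limma, adjusted p under 0.05), 11 of the pump and 25 of the sorting genes, against 48.2% of all genes higher and 7.81% lower. None was called in either direction, against 4.51% and 2.81%, and the median was 0.32 against 0.28 for all genes. VMA13 already stood 0.49 higher and VMA1 0.38 higher in the middle window, and VPS73 had the largest difference, 0.95. VPS73 was called when the library at 30, 135 or 150 min was left out (1.01, 1.08 and 1.06), and VPS8 when that at 150 min was (1.04). With libraries centred, 8 members were higher and 6 lower, against 18.9% and 19.2% of all genes.

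Between the middle and late windows 5 of 58 members rose and 0 fell, against 20.1% and 4.79% of all genes, and the median was 0.14 against 0.18. With libraries centred, 2 members were higher and 4 lower, against 5.07% and 9.81% of all genes. All 5 were sorting genes and 0 were pump genes. VPS34 rose by 0.65, VPS33 by 0.56 and VPS62 by 0.49. VPS45 (0.34) and VPS4 (0.29) rose as well; VPS45 did not pass without the 135, 150 or 300 min library, and VPS4 without any 1 of 9 libraries. No member was called, against 0.714% of all genes higher and 0.0921% lower. Before adjustment, p was under 0.05 for 9 members, of which 8 were higher and 1, VMA6, was lower.

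A spline test that uses no windows (limma's F statistic, 3 degrees of freedom) passed 47 of 58 members at an adjusted p under 0.05, 13 of the pump and 34 of the sorting genes, against 78.7% of all genes. With a fitted range of at least 1 it called 9, against 32.2% of all genes: VPS3, VPS8, VPS13, VPS15, VPS33, VPS34, VPS36, VPS71 and VPS73. No pump gene was among them, and VPS36 lay on the limit with a fitted range of 1.00. Of the 9, 7 had missing values, over which the fitted curve is not held by data. The fitted range of VPS15, 2.22, was wider than the spread of its listed levels, which lay between 3.80 and 5.35 (log2 RPM) in the no-phosphate libraries.

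The library at 0 min can only be set against the range of the early libraries, with no test. Of 56 members with a value at 0 min and in at least 6 early libraries, 15 lay below all early libraries, against 24.7% of all genes, and 3 lay above them, against 15.9%. All 4 retromer members lay below, by 0.66 for VPS5, 0.56 for VPS29, 0.37 for VPS17 and 0.33 for VPS35 against the early median. Their levels at 0 min were 30.8, 45.1, 40.01 and 45.1 RPM, on 30 to 44 reads. Their counting intervals at 0 min all overlapped their early libraries; that of VPS5 reached 43.9 RPM, and its lowest early library stood at 39.6 RPM. PEP8, the retromer gene without a VPS name, lay inside its early range. Of the pump genes VMA21 lay below and 16 lay inside, and the 3 members above were VPS33, VPS69 and VPS71. VPS15, listed in only 5 early libraries and so not counted, also stood above them.

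Genes of the same pathways without such names were taken from a list of 47, of which 42 had enough values. Of these, 32 rose and 0 fell from early to late (limma), 3 were called higher and 0 lower, and the median was 0.53. Over all genes tested 63.8% rose and 13.8% were called higher. GGA1, an adaptor for clathrin at the Golgi, was called at 2.89-fold. ATG18, which binds phosphoinositides on the vacuole, was called at 2.14-fold, and FAB1, the kinase that makes the vacuolar phosphatidylinositol 3,5-bisphosphate, at 2.13-fold. YKT6, a SNARE, had the lowest difference, -0.13, and did not pass. RAV1, SNF8, HSE1, DOA4 and FIG4 had too few values.

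Some names did not pass the filter on values. VPS61, VAM7 and VAM10 had no value in any library. VPS30 and VPS38 of the lipid kinase complexes, VPS51 and VPS52 of GARP and the SNARE gene VAM3 had values in 14, 19, 18, 16 and 18 of the 24 libraries. They are given no difference.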

How the data were processed

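The 25 libraries of 1 time course were used as deposited. The authors deposited log2 values per gene; 2 raised to these values summed to 1000000 in every library, so they were read as log2 RPM. The submitters' processing notes name Bowtie and build R64; no source used here states the read counter, the annotation or whether strand was used. The series' design text mentions scaling to the first time point, which the deposited values do not show. Genes under 15 reads in a library were missing; reads recovered from the values were whole for 93.6% to 94.4% of them (tolerance 0.02), so no count model was fitted.

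A gene was tested (4343 in all) if at least 20 of the 24 no-phosphate libraries listed it, its mean reached 1 RPM and no single value filled over 0.5 of its entries. Windows of 8 libraries stood in for replicates, so p-values measure only the spread between libraries of 1 course. Window differences and a natural cubic spline (3 degrees of freedom) were fitted with limma 3.58.1 in R 4.3.3 (trend and robust), two-sided, with Benjamini-Hochberg adjustment over all tested genes. A call needed an adjusted p under 0.05 and a log2 difference (for the spline, a fitted range) of at least 1; "rose" and "fell" mean an adjusted p under 0.05 alone. The VPH1 to STV1 ratio was tested by exact permutation with scipy 1.17.1. The fit was tested on simulated data. Alternatives were other scalings, filters, windows, a pseudocount of 10 RPM, no trend and left-out libraries. Of the names, 64 of 67 were matched to RefSeq R64. Exact Poisson intervals (95%) cover counting error only.

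One name left out by the filter is not reported here. Members, roles and lists were chosen with earlier results of these data known. Named were all called members, the highest and lowest difference of each role group, the subunits of the proteolipid ring and the a subunits, the highest and lowest level of the pump, members that failed the filter, and of the other pathway genes those called or with the largest difference each way. Other genes are named beside counts of 5 or fewer or to complete a complex, after their values were seen.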

Additional observations from a re-analysis of the deposited data

Results flagged for a closer look

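Each member, and the ratio of VPH1 to STV1, was checked in each window for a highest or lowest library that stood apart from the others by Dixon's criterion at 95%. It picked out 18 of 177 such groups, 11 by the highest and 7 by the lowest library, where chance gives about 1 in 20. The library at 15 min was the one that stood apart in 8 of the 18; it had the fewest reads, and the part of depth in this was not tested.

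At 15 min the log2 levels of VMA7 (10.05), VMA8 (9.26), VMA3 (9.75), VMA11 (8.81), VMA16 (8.01), VPS5 (6.64) and VPS60 (6.58) were the highest of the early window, and that of VPS66 (5.54) was the lowest. Among the other early libraries VPH2 was lowest at 105 min (5.93) and VPS34 highest at 45 min (4.94). In the middle window VMA16 was lowest at 135 min (7.55), VPS69 lowest at 150 min (5.34) and VPS64 highest at 225 min (6.33). In the late window VPS13 was lowest at 255 min (5.95), VPS75 lowest at 300 min (5.71) and VPS55 lowest at 360 min (6.54). VPS34 was highest at 300 min (5.36) and VPS5 at 315 min (6.27).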

How the results depend on the processing

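Of 1403 alternative values for 15 counts, medians or ratios and 29 members, 1324 kept their direction and call, 39 changed sign, 26 moved and 14 lost their call. The scaling of libraries had the widest effect. With libraries centred, or scaled to reads outside ribosomal protein genes, 0 sorting genes were called (4 as reported), the pump genes that rose went from 10 to 0 and those that fell from 1 to 9, and the sorting genes that rose went from 33 to 11; sorting genes that fell went from 0 to 3 and 4. Over all 4343 genes, those called higher went from 599 to 200 and 201. Those that rose went from 2771 to 1071 and 1068, and those that fell from 318 to 1116 and 1081. The pump median of 0.24 turned to -0.22 and -0.23, and the sorting median of 0.53 moved to 0.065 and 0.067. Calls of sorting genes numbered 0 among genes listed in all 24 libraries (21 rose), 2 with missing values at the floor and 1 with log2(RPM + 10), where the sorting median was 0.42. In the same settings 388 of 3275 genes (1943 rose), 540 of 4343 and 378 of 4343 were called higher. The all-gene median with log2(RPM + 10) was 0.38. With no size limit the calls from early to late numbered 10 pump genes and 33 sorting genes higher and 1 member lower, with 36 members higher from early to middle and 5 from middle to late. The shares of all genes were 63.8% higher and 7.32% lower from early to late. They were 48.2% higher from early to middle and 20.1% from middle to late. Windows of 6 libraries called 1 member from early to middle, against 266 of all 4343 genes higher. The spline called 11 members with 4 degrees of freedom.

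Among the 29 members followed through every alternative, the differences turned negative under the 2 scalings for VMA10 (-0.36, -0.37), VPH1 (-0.16, -0.16), STV1 (-0.25, -0.25), VMA3 (-0.25, -0.25), VMA11 (-0.26, -0.26), VMA16 (-0.22, -0.22), VMA9 (-0.32, -0.33), VMA22 (-0.29, -0.30), VPS29 (-0.33, -0.33), VPS20 (-0.34, -0.35), VPS53 (-0.056, -0.048), VPS9 (-0.36, -0.36), VPS74 (-0.29, -0.29), VPS75 (-0.16, -0.16) and VPS63 (-0.44, -0.45). With windows of 6 libraries VPS29 was at -0.029 and VPS63 at -0.0090. Other members, such as VMA5 and VMA6, turned negative as well. Both scalings take the same value off every gene of a library, and the median of all 4343 genes moved from 0.45 to -0.01. Genes with a difference below that shift turn negative by arithmetic. The cause of the shift itself was not tested.

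Leaving out each library in turn gave 3 to 5 called sorting genes, 0 to 2 members called from early to middle, 9 to 12 pump genes and 33 to 34 sorting genes that rose, medians of 0.22 to 0.27 for the pump and 0.50 to 0.58 for sorting, and -0.013 to 0.16 for the VPH1 to STV1 ratio (0.09 as reported; -0.027 without the 15, 345 and 360 min libraries). VPS63 ranged from -0.034 to 0.058. Over all genes, 563 to 633 were called higher and 2680 to 2824 rose from early to late. No paired analysis was possible because each time point has 1 library and no replicate numbers link the windows. Low read counts limit the called genes and other members of low abundance, and 1 course cannot show how far another culture would differ.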
